A study of Mus musculus with 17 samples.

Results

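The 10 genes described here encode subunits of the Fanconi anaemia core complex (Fanca, Fancb, Fancc, Fance, Fancf, Fancg, Fancl and Fancm) and both subunits of the ID2 complex (Fancd2 and Fanci). They were taken by gene name from the raw count tables of erythroid blasts, and all 10 were found among the 26029 genes counted in model 1 and the 24659 counted in model 2. All 10 passed the filter on low counts in both tables.

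The core complex is a ubiquitin ligase that is called to stalled replication forks, above all at crosslinks between DNA strands. There FANCL, its catalytic subunit, attaches ubiquitin to FANCD2 and FANCI, which then clamp onto the DNA and bring in nucleases and recombination proteins. Inherited loss of most of these genes causes Fanconi anaemia, in which blood-forming cells fail and leukaemia is frequent.

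RNA-seq was done on blasts kept in culture with erythropoietin (EPO), the growth factor of red cell precursors. There was 1 library for each of 17 mice, named here by the end of its title. All mice carried the Spi1 transgene (TgSpi1), which drives the blood transcription factor SPI1/PU.1 and holds erythroid progenitors in proliferation. Model 1, of the mixed DBA2JxFVB/N background, held 4 preleukaemic mice with intact Fanca (TgSpi1FA+/+: preleukemic_445, preleukemic_479, preleukemic_451 and preleukemic_138), 3 preleukaemic mice homozygous for the Fanca deletion (TgSpi1FA-/-: preleukemic_77, preleukemic_224 and preleukemic_40) and 3 leukaemic TgSpi1FA-/- mice (leukemic_26, leukemic_28 and leukemic_39). Model 2, of the DBA2J background, held 4 preleukaemic TgSpi1FA+/+ mice (preleukemic_633, preleukemic_663, preleukemic_812 and preleukemic_837) and 3 leukaemic ones (leukemic_601, leukemic_606 and leukemic_921) whose cells arose after serial blood transfusion. No leukaemic TgSpi1FA+/+ library of model 1 and no TgSpi1FA-/- library of model 2 was analysed here. Strain and library protocol (400 ng of RNA and 8 min of fragmentation in model 1, 300 ng and 2 min in model 2) therefore cannot be told apart from the model.

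Each library held between 29964576 and 38217654 counts in model 1 and between 37726753 and 40514205 in model 2. The 8 erythroid markers summed to at least 1961 CPM in every library, though Hbb-bt and Alas2, genes of haemoglobin and haem synthesis, were as low as 0.101 and 1.69 CPM in single libraries. Markers of myeloid, B and T cells were near 0. Several libraries call for care. The preleukaemic TgSpi1FA-/- mice are leukaemic in 1 label field and in the column names but preleukaemic in their titles, which were followed. The libraries preleukemic_445 and preleukemic_479 were far closer to each other (chi-square per degree of freedom of 6.38 over genes) than the other pairs of model 1 (79.4 to 259), although they differed by more than sampling noise and were kept as separate mice. In a second deposited table with other counts for 7 of these mice, 5 correlated best with their own number in the model 1 table, but preleukemic_445 correlated best with preleukemic_451 (r = 0.85, against 0.82 with its own number, over 8424 genes) and preleukemic_479 with preleukemic_445. Spi1 itself was at 3.88 counts-per-million (CPM) in leukemic_39, against 220 and 630 in leukemic_28 and leukemic_26 and 467 to 1061 in the preleukaemic libraries of model 1, so the library labelled leukemic_39 did not have the Spi1 level of the other transgenic libraries. Calls of members that compare these libraries are given with and without them. The test of the difference between the models includes preleukemic_445 and preleukemic_479 and was not refitted without them. Ratios, correlations and marker sums include all libraries.

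Levels are given as CPM scaled by the TMM method. A gene is called changed at an adjusted p under 0.05 (edgeR quasi-likelihood test, Benjamini-Hochberg over all genes tested) and a fold change of at least 1.5. Exact permutation tests of single genes cannot go below a 2-sided p of 0.0571 with 3 mice against 4, or 0.1 with 3 against 3. In these bulk samples, fewer cells of a type and less RNA per cell cannot be told apart.

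The promoters of 3 members are shown first. Of these, Fancg and Fanci were called lower together in the leukaemic TgSpi1FA-/- cells. Fancb was called in no progression comparison, but its change was called different between the 2 models. Each runs 5′ to 3′ from 250 bases before to 50 bases after the RefSeq start (GRCm38.p6), at chr4:43010252-43010551 on the minus strand for Fancg, chr7:79392088-79392387 on the plus strand for Fanci and chrX:164980342-164980641 on the plus strand for Fancb. Capitals mark matches, on either strand, to the E2F words TTTCCCGC, TTTCGCGC, TTTGCCGC and TTTGGCGC or to CCAAT.
Fancg: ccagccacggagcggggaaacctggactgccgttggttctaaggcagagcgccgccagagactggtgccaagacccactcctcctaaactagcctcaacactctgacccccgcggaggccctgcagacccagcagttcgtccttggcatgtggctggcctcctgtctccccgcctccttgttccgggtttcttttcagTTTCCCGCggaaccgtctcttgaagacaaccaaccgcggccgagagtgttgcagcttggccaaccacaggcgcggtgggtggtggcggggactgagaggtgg
Fanci: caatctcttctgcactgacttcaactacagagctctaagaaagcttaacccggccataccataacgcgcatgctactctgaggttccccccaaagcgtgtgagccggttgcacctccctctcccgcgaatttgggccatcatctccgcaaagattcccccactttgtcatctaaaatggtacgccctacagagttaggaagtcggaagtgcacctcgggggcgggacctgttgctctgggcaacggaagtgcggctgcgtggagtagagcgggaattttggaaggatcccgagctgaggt
Fancb: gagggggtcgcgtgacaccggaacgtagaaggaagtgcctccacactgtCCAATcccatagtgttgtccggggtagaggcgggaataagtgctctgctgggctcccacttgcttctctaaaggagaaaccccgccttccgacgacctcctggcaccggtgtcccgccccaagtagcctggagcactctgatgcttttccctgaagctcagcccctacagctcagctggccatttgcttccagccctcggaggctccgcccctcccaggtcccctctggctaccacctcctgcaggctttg
An E2F word (TTTCCCGC) stood 52 bases before the RefSeq start of Fancg, and none was found in the other 8 promoters of the members on hand. Such a word is present in 2.26% of 32851 mouse promoters of this length. Fancb held CCAAT, as did Fanca, Fancc, Fance, Fancf and Fancm, that is 6 of 9 members against 37.4% of all promoters. Fanci held neither in its window. GENCODE M21 starts Fanci at 79391929, so its whole window lay inside that gene span. The same source starts Fancg at 43010506, so the E2F word also lay inside the gene. Sequence upstream of these GENCODE starts was not searched for Fanci, and only in small part for Fancg. GAGGAA, a core that SPI1 can bind, occurred in Fanca and Fancc only (28.3% of all promoters). The GATA word AGATAA occurred in no member (11.2% of all promoters). The words of the different motifs did not overlap in these promoters. The promoter of Fancd2 was not analysed here.

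Fanca (ENSMUSG00000032815, chr8:123268300-123318576, minus strand), the deleted gene, was measured first. It stood at 29.5, 28.2, 71.4 and 83.5 CPM in the TgSpi1FA+/+ preleukaemic mice preleukemic_445, preleukemic_479, preleukemic_451 and preleukemic_138. In the preleukaemic TgSpi1FA-/- mice preleukemic_77, preleukemic_224 and preleukemic_40 it was at 2.30, 1.23 and 0.615 CPM, and in the leukaemic mice leukemic_26, leukemic_28 and leukemic_39 at 0.959, 1.20 and 1.67 CPM. The groups did not overlap, and every library matched its Fanca label. Between 19 and 70 counts remained in the TgSpi1FA-/- libraries, and counts per gene do not show which exons they come from. Part of the gene, 920 bp of exon, lies opposite exons of Zfp276, and the strand setting of the counting is not given in the sources used here. The fitted difference was -5.26 on the log2 scale (SE 0.65) between the preleukaemic genotypes. It missed the threshold of the edgeR test (adjusted p = 0.0759) but passed the Wald test of DESeq2 (adjusted p = 7.06e-18). Without preleukemic_451 it also passed with edgeR (-5.10, adjusted p = 0.0498), and over all alternatives the adjusted p ran from 7.06e-18 to 0.382. In the 7 mice of model 2 Fanca was between 28.1 and 44.1 CPM.

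Levels of different genes were compared per kb of exon, and positions are those of GENCODE M21 (GRCm38). Fancc (chr13:63285043-63497278, minus strand), which encodes a subunit that helps the core complex grip FANCD2, had the lowest range of the 9 members other than Fanca, 0.883 to 2.71 CPM per kb over the 17 libraries, overlapping the ranges of Fancf, Fancm and Fancd2. Fancm, which encodes the DNA translocase that anchors the complex on chromatin, ranged from 2.13 to 7.33 CPM per kb and Fancf (chr7:51860577-51862267, minus strand), an adaptor subunit, from 1.55 to 8.19. Fancl (chr11:26386135-26471876, plus strand), the ligase subunit, spanned 5.60 to 16.2 CPM per kb, Fance (chr17:28313519-28326572, plus strand) 5.32 to 18.7, Fancb 4.38 to 11.9, and Fancg 3.66 to 12.7. The ID2 genes had wide ranges, from 2.14 to 17.4 CPM per kb for Fancd2 and 3.09 to 14.1 for Fanci. Over all 17 libraries, the highest CPM exceeded the lowest by 2.71-fold for Fancb and by 8.15-fold for Fancd2. These were the smallest and largest ranges of the 9 besides Fanca with both models pooled, and the order held in neither model alone. Within model 1 the range of these 9 was smallest for Fancf (1.39-fold) and largest for Fancg (3.47-fold, against 3.42-fold for Fancd2). Within model 2 it was smallest for Fancm (1.82-fold) and largest for Fanci (4.29-fold, against 3.79-fold for Fancd2). Exons of Fancc, Fance, Fancf, Fancl, Fancm and Fancd2 also lie in part opposite exons of other genes, so their counts carry the same doubt over strand as those of Fanca. Fancg and Fancb have no such overlap. The plot of CPM by library shows all 10 genes.

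**Figure D1:**
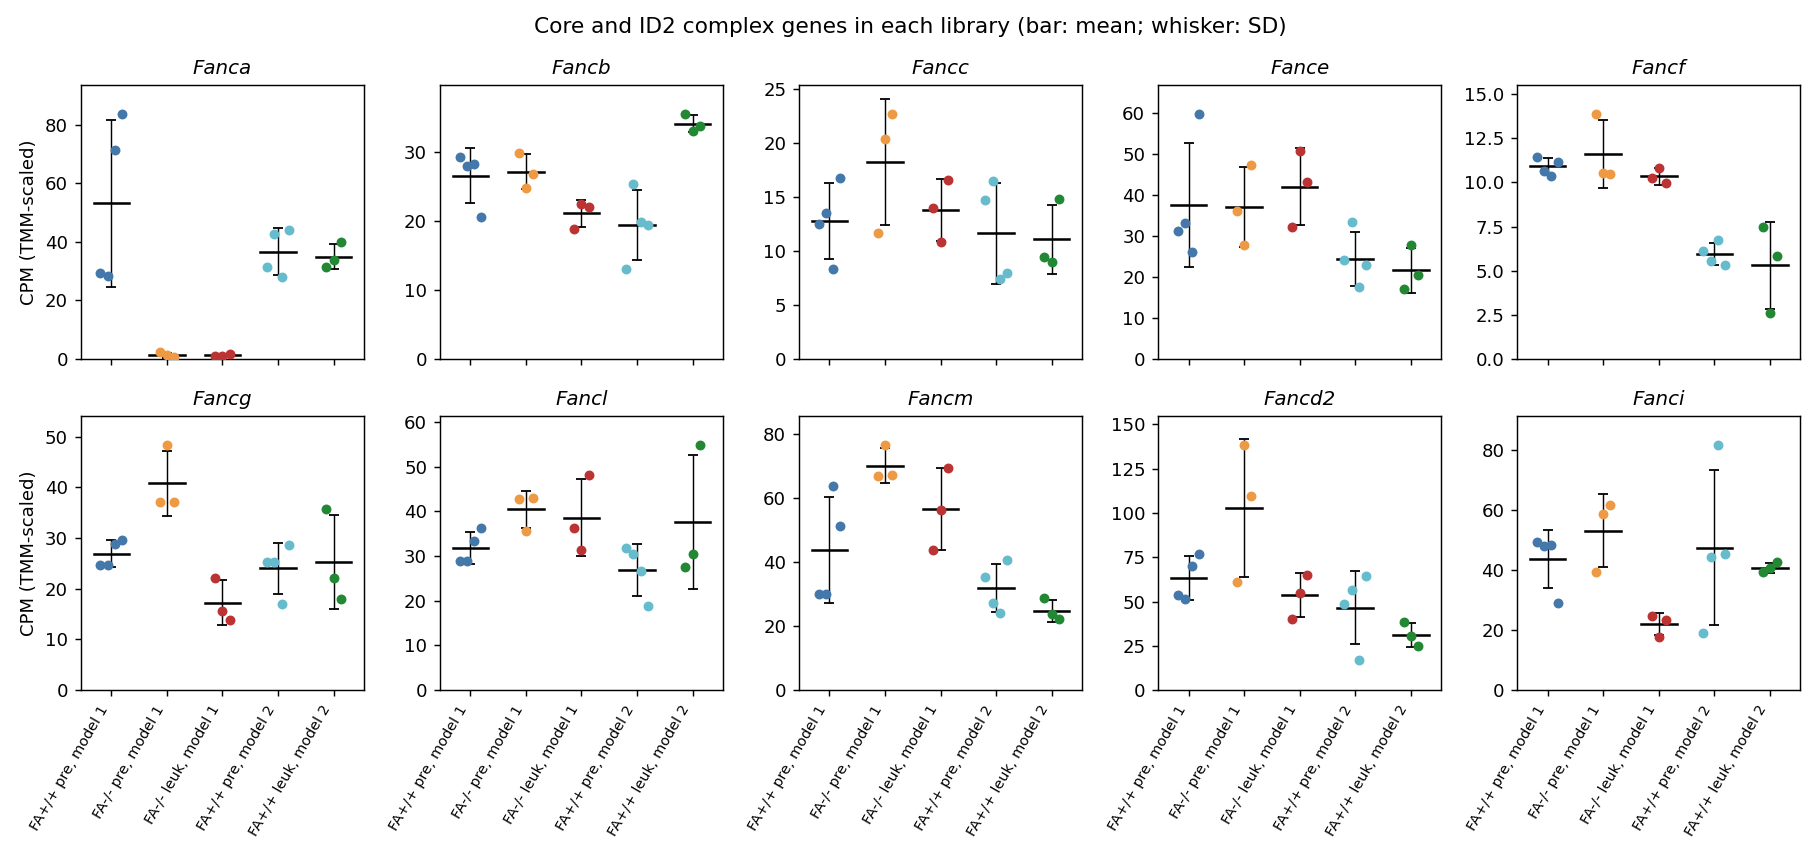
CPM (TMM-scaled, linear axis from 0) of each of the 10 genes in each of the 17 libraries, with points for mice, bars for group means and whiskers for SD. Fanca was at most 2.30 CPM in the 6 TgSpi1FA-/- libraries and at least 28.1 in the others, and Fancg and Fanci were lower in all 3 leukaemic TgSpi1FA-/- mice than in all 3 preleukaemic ones.

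The comparison of preleukaemic TgSpi1FA-/- with TgSpi1FA+/+ cells asks whether transcripts of the other subunits were higher where Fanca was lost. None of the 9 other members was called. Across all genes, edgeR called 1 of 13393 (0.00747%), DESeq2 called 236 and 1159 (8.65%) had an unadjusted p under 0.05. DESeq2 called Fanca and none of the other 9. Fitted estimates were higher in the TgSpi1FA-/- cells for 8 of the 9, against 50.5% of all genes, with a median of 0.35 on the log2 scale against 0.0048 over all genes. These are estimates that did not pass the test, and they share the 3 TgSpi1FA-/- libraries.

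Fancg (ENSMUSG00000028453, chr4:43002343-43010506, minus strand), whose protein binds FANCA directly, was at 24.7, 24.6, 28.9 and 29.6 CPM in TgSpi1FA+/+ preleukemic_445, preleukemic_479, preleukemic_451 and preleukemic_138. In TgSpi1FA-/- preleukemic_77, preleukemic_224 and preleukemic_40 it was at 37.0, 48.2 and 37.0 CPM. All 3 TgSpi1FA-/- values lay above all 4 others, with an estimated difference of 0.60 (95% interval 0.14 to 1.05, adjusted p = 0.535).

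Fancm (chr12:65075603-65132058, plus strand) had levels of 30.1, 30.1, 63.7 and 51.3 CPM in the TgSpi1FA+/+ mice, taken in that order, against 66.8, 76.5 and 67.1 CPM where Fanca was lost. These groups did not overlap either, and the gap between preleukemic_451 and preleukemic_77 was small. Its estimate was 0.68 (95% interval 0.04 to 1.32, adjusted p = 0.557). Fancg and Fancm were the only 2 of the 9 whose groups did not overlap, where 8.53% of all genes did not.

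Fancd2 (chr6:113531682-113597017, plus strand), the ubiquitinated target of the core complex, was at 53.8, 51.5, 70.2 and 76.95 CPM in TgSpi1FA+/+ preleukemic_445, preleukemic_479, preleukemic_451 and preleukemic_138. In TgSpi1FA-/- preleukemic_77, preleukemic_224 and preleukemic_40 it was at 60.8, 138.2 and 109 CPM. Mouse preleukemic_77 lay within the TgSpi1FA+/+ range and the other two above it. The estimate of 0.70 (95% interval 0.06 to 1.34, adjusted p = 0.550) was thus 1 of 3 among the 9 with an unadjusted p under 0.05, with Fancg and Fancm.

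The remaining core genes gave smaller or less certain estimates. Fancc was at 0.51 (95% interval -0.21 to 1.23) and Fancl at 0.35 (-0.06 to 0.75) on the log2 scale, and Fanci of the ID2 pair at 0.28 (-0.26 to 0.82). Fancb, partner of FANCL in the catalytic module, was at 0.03 (-0.36 to 0.43), Fancf at 0.09 (-0.38 to 0.56) and Fance, which contacts FANCD2, at -0.02 (-0.72 to 0.69). The interval held a 1.5-fold rise for 7 of the 9 and left it out for Fancb and Fancf, so that a rise of that size was neither called nor left out for most of them. With the counts of preleukemic_445 and preleukemic_479 summed as 1 library, or without either of them, again none of the 9 was called, and their median estimate over the 7 fits without a mouse stayed between 0.30 and 0.45.

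**Figure D2:**
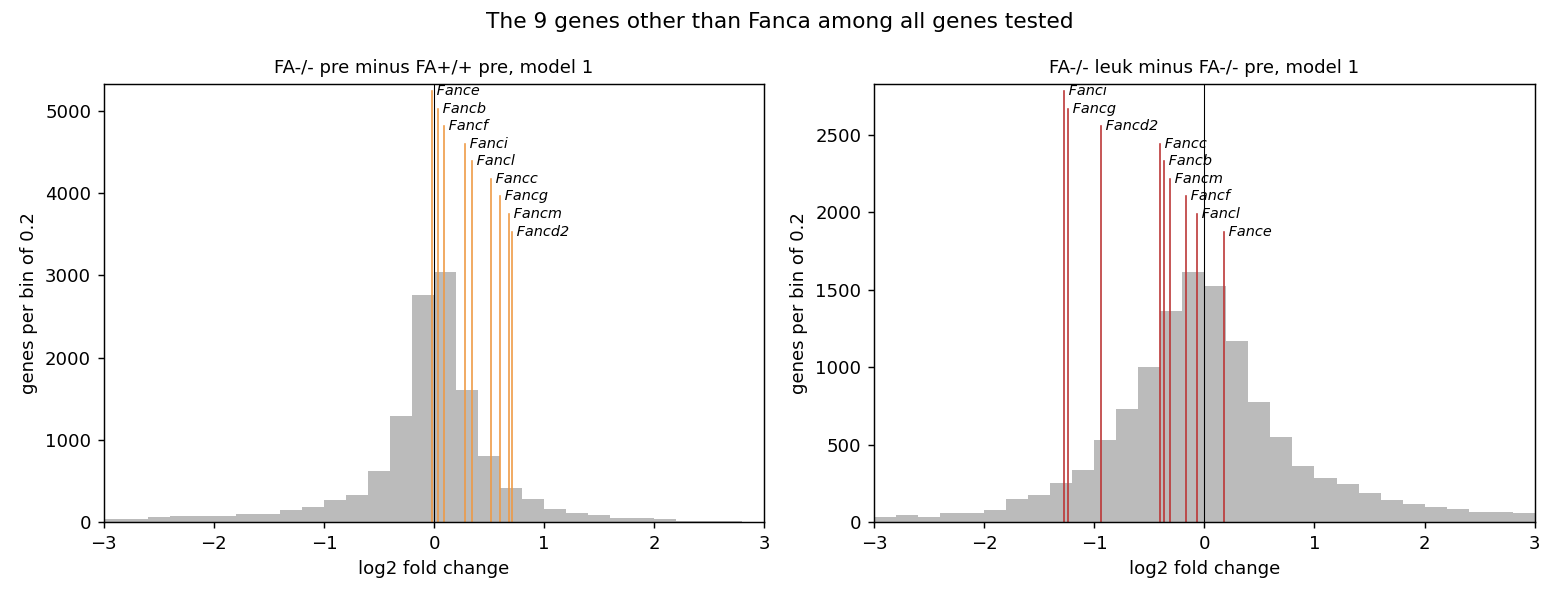
Histograms of the log2 fold changes of all 13393 genes tested in model 1 (bins of 0.2; changes beyond 3 not drawn) with lines for the 9 members other than Fanca. Left, TgSpi1FA-/- against TgSpi1FA+/+ preleukaemic cells, where 8 of 9 lines lie above 0 and none was called; right, leukaemic against preleukaemic TgSpi1FA-/- cells, where 8 of 9 lie below 0 and Fancg and Fanci were called.

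The second comparison followed TgSpi1FA-/- cells from the preleukaemic to the leukaemic stage. Fancg fell by 1.24 and Fanci by 1.28 on the log2 scale. They were the 2 of 10 members called, among 1782 of 13393 genes (13.3%), and both were lower, as were 869 genes (6.49%). DESeq2 called 3067 genes and the same 2 members. Of the 9 members other than Fanca, 8 had lower estimates, against 50.1% of all genes, with a median of -0.36 against -0.0012 over all genes. This comparison and the preceding one share the 3 preleukaemic TgSpi1FA-/- libraries, so a high value there raises 1 estimate and lowers the other.

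Fancg was at 22.2, 15.7 and 13.9 CPM in leukemic_26, leukemic_28 and leukemic_39, below the 37.0 to 48.2 CPM of the preleukaemic TgSpi1FA-/- mice and also below the 24.6 to 29.6 CPM of the TgSpi1FA+/+ mice. The difference of -1.24 had an SE of 0.22 (adjusted p = 0.0127). It remained called in 4 of the 6 fits that left out 1 mouse and missed the threshold without preleukemic_224 (-1.08, adjusted p = 0.0542) or without leukemic_28 (-1.15, adjusted p = 0.0579). Without leukemic_39, the library with little Spi1, it was called (-1.08, adjusted p = 0.0414).

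Fanci (ENSMUSG00000039187, chr7:79391929-79450264, plus strand), the partner that FANCD2 clamps DNA with, was at 39.1, 58.7 and 61.4 CPM in TgSpi1FA-/- preleukemic_77, preleukemic_224 and preleukemic_40 and at 24.6, 17.8 and 23.4 CPM in leukemic_26, leukemic_28 and leukemic_39. The groups did not overlap. The difference of -1.28 had an SE of 0.26 (adjusted p = 0.0190). This call was kept in 2 of the 6 fits without 1 mouse, those without preleukemic_77 or leukemic_26, and missed the threshold without preleukemic_224 (adjusted p = 0.0693), preleukemic_40 (0.0547), leukemic_28 (0.0738) or leukemic_39 (0.0526), with estimates of -1.12 to -1.44 over the 6 fits. Fanci shares a stretch of exon with Polg, the mitochondrial DNA polymerase, on the opposite strand. Polg fell by 0.77 (adjusted p = 0.0192, lost without preleukemic_224, preleukemic_40, leukemic_28 or leukemic_39), and reads of this stretch can be assigned to 1 gene only if strand was used in counting.

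Fancd2 was at 40.4, 55.1 and 65.2 CPM in leukemic_26, leukemic_28 and leukemic_39 against 60.8, 138.2 and 109 CPM in the preleukaemic mice. The values overlapped through preleukemic_77, and the estimate of -0.94 (SE 0.31) missed the threshold (adjusted p = 0.0701). Without preleukemic_77 it passed (-1.20, adjusted p = 0.0378). Fancb was at 18.9, 22.5 and 22.0 CPM against 29.9, 24.8 and 26.8. All 3 leukaemic values were lower, but by a small step (-0.36, SE 0.19, adjusted p = 0.216). With Fancg and Fanci it made 3 of 9 members whose groups did not overlap, against 38.7% of all genes.

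The other estimates lay between -0.40 for Fancc (95% interval -1.18 to 0.38) and 0.18 for Fance (-0.58 to 0.94), with Fancm at -0.31, Fancf at -0.17 and Fancl, the ligase itself, at -0.07. All groups of these 5 genes overlapped. The estimate for Fanca was -0.11 (SE 0.57).

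Summed levels of some marker lists differed between these groups. The summed CPM of 8 erythroid markers was 3089 to 4148 in the preleukaemic TgSpi1FA-/- mice and 1961 to 3223 in the leukaemic mice. That of 3 megakaryocyte markers (Pf4, Itga2b and Gp9) was 31.1 to 39.2 in the former and 163 to 250 in the latter, with none of the 3 listed at 0 in all libraries of a group. In the TgSpi1FA+/+ preleukaemic mice of model 1 this sum was 43.6 to 187 CPM, overlapping that of the leukaemic mice. Gp9 was at most 1.16 CPM in any library of model 1, so Pf4 and Itga2b made up nearly all of the sum. The 3 mast cell markers summed to at most 1.04 CPM in either group of TgSpi1FA-/- mice, with 1 of them at 0 in all preleukaemic TgSpi1FA-/- libraries. The part of these shifts in the falls of Fancg and Fanci was not tested.

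**Figure D3:**
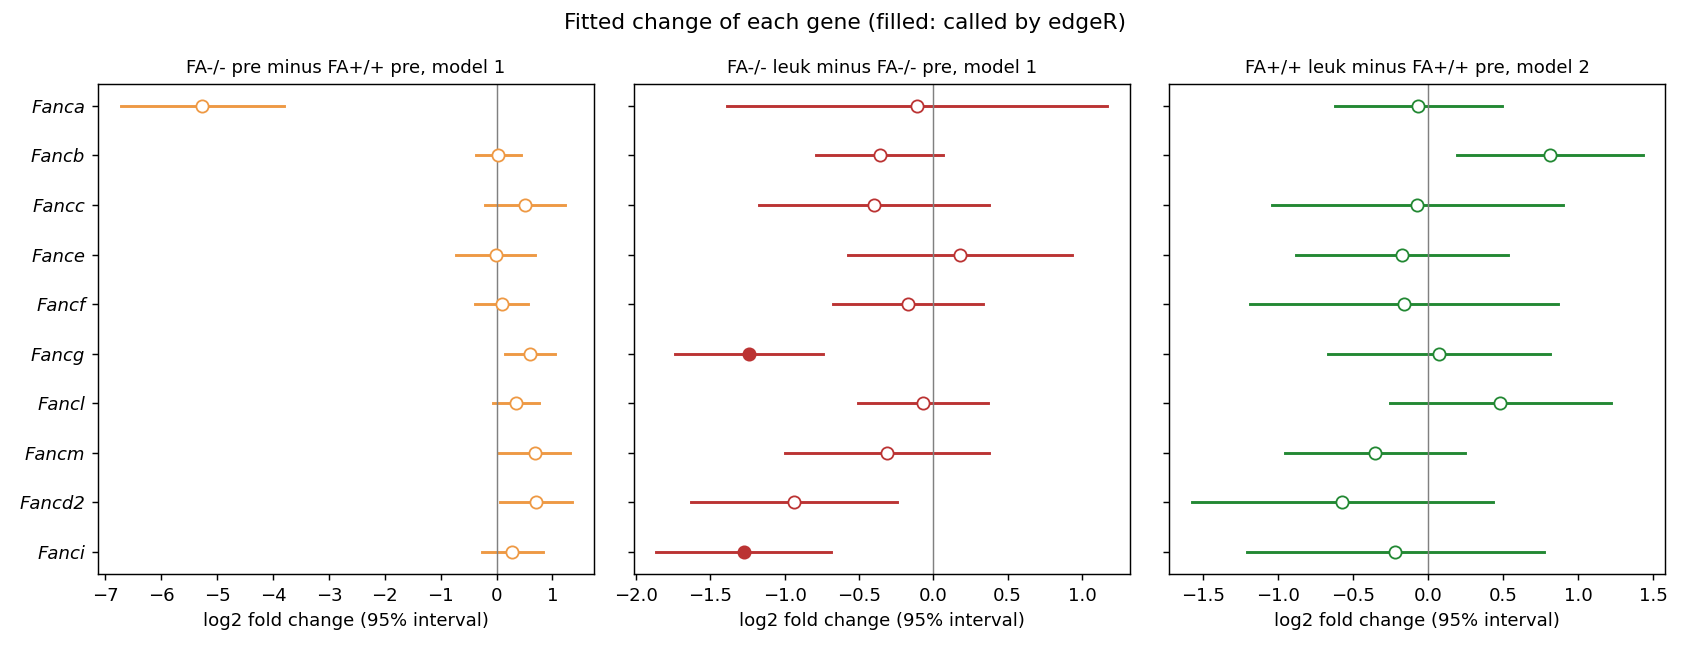
Fitted log2 fold changes of the 10 genes with 95% intervals in 3 comparisons, filled where called by edgeR. Left, preleukaemic TgSpi1FA-/- against TgSpi1FA+/+; middle, leukaemic against preleukaemic TgSpi1FA-/- with Fancg (-1.24) and Fanci (-1.28) filled; right, leukaemic against preleukaemic TgSpi1FA+/+ of model 2, where none is filled. Scales differ between panels.

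A further comparison, which shares its TgSpi1FA+/+ mice with the first and its leukaemic mice with the second, set the ends side by side. Against TgSpi1FA+/+ preleukaemic cells, leukaemic TgSpi1FA-/- cells had 2 members called, Fanca (-5.37, SE 0.65, adjusted p = 0.00658) and Fanci (-0.99, SE 0.25, adjusted p = 0.0441), among 939 genes (7.01%). In CPM, Fanci stood at 49.2, 47.8, 48.4 and 29.0 in preleukemic_445, preleukemic_479, preleukemic_451 and preleukemic_138, so that preleukemic_138 lay close to the leukaemic mice, although the groups did not overlap. DESeq2 also called Fanci (adjusted p = 0.00847). The edgeR call of Fanci was lost with preleukemic_445 and preleukemic_479 summed as 1 library (-0.94, adjusted p = 0.113). It was lost without preleukemic_445 (adjusted p = 0.114), preleukemic_479 (0.112), preleukemic_451 (0.0927), leukemic_28 (0.157) or leukemic_39 (0.115). The same held with no filter (-0.99, adjusted p = 0.0608), with the compared groups only and in the second table (-0.70, adjusted p = 0.250). Fancg was lower by an estimate of 0.64 and missed the threshold (adjusted p = 0.0852, DESeq2 0.0444). It was -0.79 in the second table (adjusted p = 0.282), where Fancd2 was -0.80 (adjusted p = 0.214). Fanca stayed called in each fit without 1 mouse and in the second table (-5.63, adjusted p = 0.00931).

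In model 2 the passage to leukaemia took place with Fanca present. None of the 10 members was called, and edgeR called none of 12970 genes (0%). The smallest adjusted p was 0.162, 2587 genes (19.9%) had an unadjusted p under 0.05 and DESeq2 called 471 genes but no member.

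Fancb (ENSMUSG00000047757, chrX:164980592-164997272, plus strand) was at 13.1, 25.4, 19.8 and 19.5 CPM in preleukemic_633, preleukemic_663, preleukemic_812 and preleukemic_837 and at 35.4, 33.1 and 33.7 CPM in leukemic_601, leukemic_606 and leukemic_921. It was the only member whose groups did not overlap, as in 20.1% of all genes, and the only one with an unadjusted p under 0.05. Its estimate was 0.81 (95% interval 0.19 to 1.43, adjusted p = 0.178). The 3 leukaemic mice were close to each other and the preleukaemic ones more spread.

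Fancg, called in model 1, was at 25.3, 25.2, 16.9 and 28.7 CPM in the preleukaemic mice of model 2 and at 35.7, 22.2 and 18.0 CPM in the leukaemic ones. The groups overlapped widely and the estimate was 0.07 (95% interval -0.66 to 0.81). Fanci was at 19.0, 44.2, 81.4 and 45.2 CPM before and 39.3, 40.5 and 42.6 CPM after, an estimate of -0.22 (95% interval -1.21 to 0.77). The preleukaemic mice alone spanned more than the leukaemic ones, from preleukemic_633 to preleukemic_812. For the other members the estimates ran from -0.57 for Fancd2 to 0.48 for Fancl, with none near the threshold. Mast cell markers summed to 14.2 to 45.1 CPM in these leukaemic mice and 0.0252 to 5.47 CPM in the preleukaemic ones. The 8 erythroid markers summed to 2026 to 3796 CPM in the leukaemic and 3810 to 4982 CPM in the preleukaemic mice. The part of these markers in these estimates was not tested.

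Whether the leukaemic change differed between the models was tested directly, as an interaction over the 14597 genes tested in all 17 libraries. It was called for 673 genes (4.61%), and for 1 member, Fancb (-1.18, SE 0.32, adjusted p = 0.0484). The estimate for Fancb was lower in leukaemic TgSpi1FA-/- cells of model 1 (-0.36) and higher in leukaemic cells of model 2 (0.81), neither called on its own. The call of the difference lay at the edge of the threshold and was lost with DESeq2 size factors or with no filter. The Wald test of DESeq2 called Fancb (adjusted p = 0.00844). With a filter of at least 1 CPM in 3 libraries the edgeR call was kept (adjusted p = 0.0413). It was kept in 2 of the 13 fits without 1 mouse, those without preleukemic_663 or preleukemic_812. Without any 1 of the other 11 mice the threshold was missed, with adjusted p up to 0.105 (without preleukemic_77). The TgSpi1FA+/+ preleukaemic mice of model 1, among them preleukemic_445 and preleukemic_479, entered this fit but not the difference itself. No fit of the interaction left any of them out. Fancg differed by -1.32 (SE 0.37) with an adjusted p of 0.0542, and DESeq2 called it (adjusted p = 0.0130). The difference for Fanci was -1.06 (95% interval -2.17 to 0.05, adjusted p = 0.214), so that its fall in model 1 was not shown to differ from model 2. Fanca genotype, strain, protocol and the way leukaemia arose all differ between the models and cannot be told apart.

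The ID2 proteins act as a pair, and their transcripts were compared per kb of exon. The ratio of Fancd2 to Fanci was 0.794, 0.783, 1.06 and 1.93 in TgSpi1FA+/+ preleukemic_445, preleukemic_479, preleukemic_451 and preleukemic_138 and 1.13, 1.71 and 1.30 in TgSpi1FA-/- preleukemic_77, preleukemic_224 and preleukemic_40. It was 1.20, 2.25 and 2.03 in leukemic_26, leukemic_28 and leukemic_39. The groups of model 1 overlapped. In model 2 the ratio was 1.87, 0.927, 0.152 and 1.03 in preleukemic_633, preleukemic_663, preleukemic_812 and preleukemic_837 and 0.713, 0.547 and 0.429 in the leukaemic mice. Mouse preleukemic_812 stood apart, with the lowest Fancd2 (17.0 CPM) and the highest Fanci (81.4 CPM) of all 17 mice. Fancd2 exceeded Fanci per kb in all 6 TgSpi1FA-/- libraries and in no leukaemic library of model 2. It also did so in TgSpi1FA+/+ preleukemic_451 (1.06), preleukemic_138 (1.93), preleukemic_633 (1.87) and preleukemic_837 (1.03). In TgSpi1FA+/+ preleukemic_445, preleukemic_479, preleukemic_663 and preleukemic_812 it did not.

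**Figure D4:**
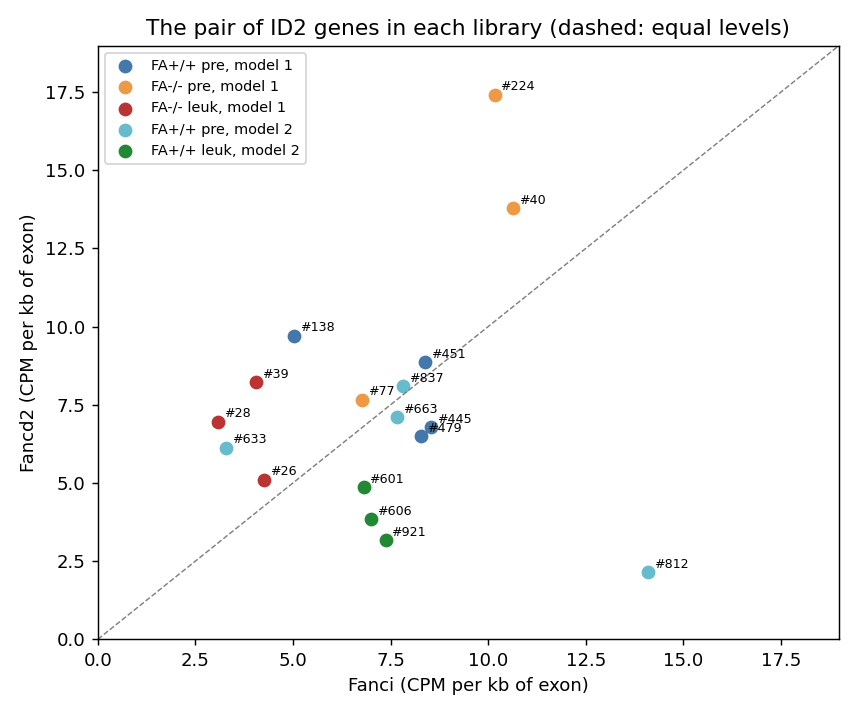
Fancd2 against Fanci in each library, both in CPM per kb of exon on linear axes from 0, coloured by group and labelled by mouse, with a dashed line for equal levels (the mark # stands before the number that ends a title). The 3 leukaemic TgSpi1FA-/- mice lie at the left above the line, the 3 leukaemic mice of model 2 below it, and preleukemic_812 alone at the lower right.

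Genes that work with these complexes were read from a list of 10 partners. In the genotype comparison none was called, and 6 of 10 estimates were higher (median 0.01). From preleukaemic to leukaemic TgSpi1FA-/- cells, 2 of 10 were called, both lower, against 6.49% of all genes called lower. Faap100, which holds FANCB and FANCL together, fell by 1.51 (SE 0.39, adjusted p = 0.0342), and Faap24, which helps FANCM bind DNA, fell by 1.10 (SE 0.26, adjusted p = 0.0268). Each call was lost in several fits without 1 mouse, Faap100 in 4 of 6 (without preleukemic_77, preleukemic_224, preleukemic_40 or leukemic_28) with adjusted p up to 0.107, and Faap24 in 5 of 6 (all but the fit without leukemic_26) with adjusted p up to 0.0805. Both were also lost with the compared groups only. Ube2t, the conjugating enzyme that hands ubiquitin to FANCL, had an estimate of 1.08 that did not pass (adjusted p = 0.0672). Faap24 was also called against TgSpi1FA+/+ preleukaemic cells (-0.99, adjusted p = 0.0437), but not without preleukemic_445, preleukemic_479, preleukemic_451, leukemic_28 or leukemic_39, nor with no filter, the compared groups only, preleukemic_445 and preleukemic_479 summed as 1 library or the second table. None of the 10 was called in model 2.

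Of 10 genes that act after the ID2 complex in nuclease and recombination steps, all 10 had higher estimates in preleukaemic TgSpi1FA-/- than in TgSpi1FA+/+ cells, but none was called and the median was 0.19, where 50.5% of all genes had higher estimates. In leukaemic against preleukaemic TgSpi1FA-/- cells the 10 estimates were lower, against 50.1% of all genes, and 3 genes were called, against 6.49% of all genes called lower. Brip1, a helicase, fell by 1.07 (SE 0.17, adjusted p = 0.00866) and kept its call in all 6 fits without 1 mouse. Brca2, a recombination mediator, fell by 1.03 (adjusted p = 0.0303) and kept it only without preleukemic_77. Ercc4, a subunit of the crosslink nuclease, fell by 0.61 (adjusted p = 0.0414), kept it in none of the 6, and lost it with DESeq2, DESeq2 size factors, no filter or the compared groups only. Brip1 was the only gene of this list called in the interaction (-1.45, adjusted p = 0.0285), lower in model 1, and this was lost in 6 of 13 fits without 1 mouse (preleukemic_77, preleukemic_224, preleukemic_40, leukemic_28, leukemic_39 or leukemic_921). It was also called lower against TgSpi1FA+/+ preleukaemic cells (-0.95, adjusted p = 0.0157), but not without preleukemic_479, leukemic_28 or leukemic_39 and not in the second table.

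Since many repair genes follow DNA replication, 18 S phase genes were read beside them. None was called between the preleukaemic genotypes (median -0.02). From preleukaemic to leukaemic TgSpi1FA-/- cells 1 of 18 was called, against 6.49% of all genes called lower. This was Rrm2, which fell by 1.11 (adjusted p = 0.0415). It was not called without preleukemic_77, preleukemic_224, preleukemic_40, leukemic_28 or leukemic_39 or with the compared groups only. Of the 18 estimates 12 were lower, against 50.1% of all genes, and the median was -0.15. Rrm1 (-0.54, adjusted p = 0.0148) and Mcm7 (-0.41, adjusted p = 0.0489) passed on adjusted p but changed by less than 1.5-fold. In model 2 the median was -0.30 with none called. Rrm1 was called lower in leukaemic TgSpi1FA-/- against TgSpi1FA+/+ preleukaemic cells (-0.59, adjusted p = 0.0152, lost without preleukemic_445, preleukemic_479, leukemic_28 or leukemic_39 and in 5 of 8 other alternatives), and Gins2 in the interaction (-1.72, adjusted p = 0.0298, lost without preleukemic_77, preleukemic_224, preleukemic_40, leukemic_28, leukemic_39, leukemic_601, leukemic_606 or leukemic_921).

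**Figure D5:**
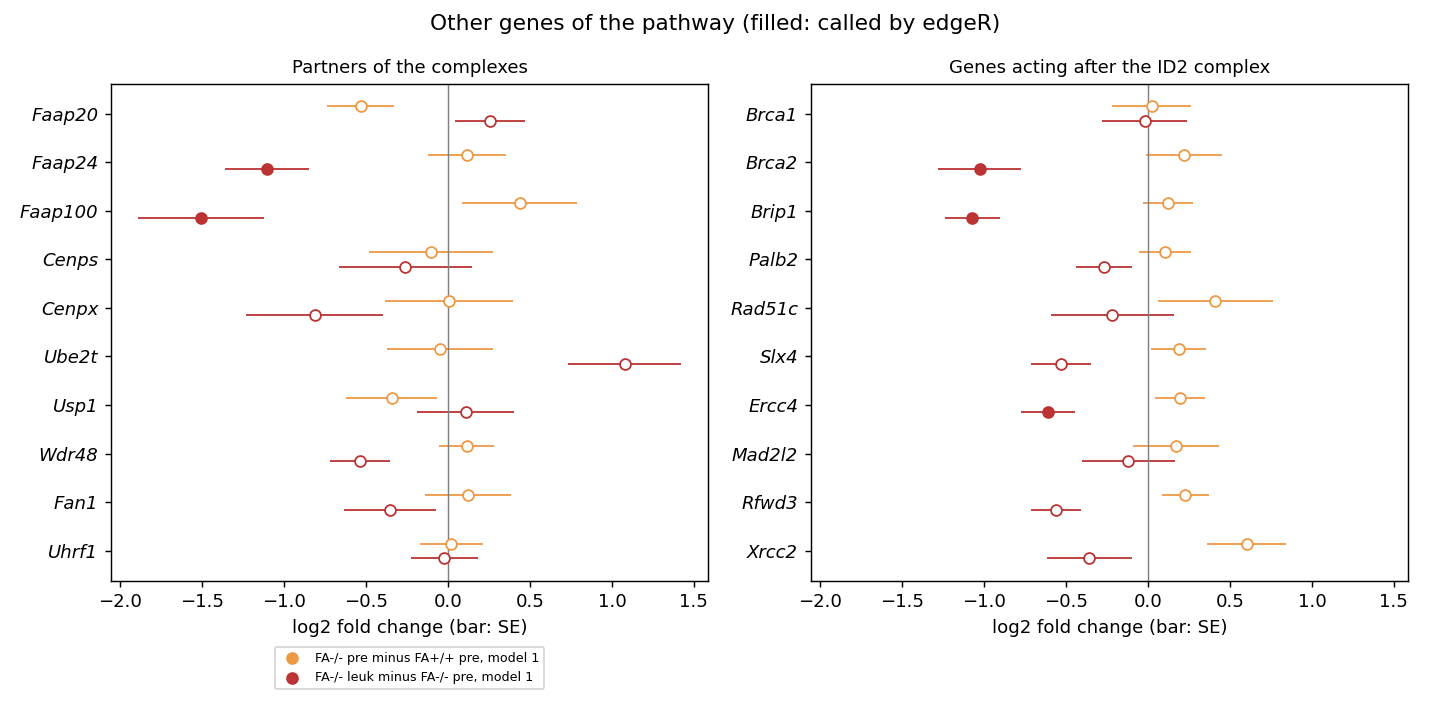
Log2 fold changes (bars: SE) of 10 partners of the complexes (left) and 10 genes acting after the ID2 complex (right) in model 1, filled where called by edgeR. Orange, preleukaemic TgSpi1FA-/- against TgSpi1FA+/+, with none filled; red, leukaemic against preleukaemic TgSpi1FA-/-, with Faap24, Faap100, Brca2, Brip1 and Ercc4 filled, all lower.

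The genes whose log2 CPM followed each member most closely over the 10 libraries of model 1 were found by Pearson correlation, a description over libraries that share groups and depth. For Fancg they were Tfr2 (r = 0.987) and Sh3bgrl (0.976), for Fanci Hmgn5 (0.976) and Rbl1 (0.973), for Fancb Zfp385a (0.987) and for Fancd2 Nbas (0.970). No member was among the 2 nearest genes of another.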

How the data were processed

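Poly(A) RNA of cultured erythroid blasts was sequenced with a stranded kit (17 mice, 1 library each). The authors deposited raw counts per Ensembl gene, not normalized. The submitters' processing notes name bcl2fastq 2.17.1.14, STAR 2.5.3a, HTSeq 0.6.1p1 and mm10/GRCm38, and the strand setting of the counting is not given in the sources used here. A second table of model 1 (31633 genes, 35497594 to 171572736 counts per library) was an alternative only, and a copy of the model 2 table was not used.

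Counts were tested with the quasi-likelihood functions of edgeR 4.0.16 (R 4.3.3) after filterByExpr and TMM scaling, with 1 fit of the 3 groups of model 1, 1 of the 2 groups of model 2 and 1 of all 17 libraries over the 22088 shared genes for the interaction. DESeq2 1.42.0, 2 other filters, other size factors, robust fits, fits of the compared groups only and leaving out each mouse of the groups compared were alternatives. The filter of at least 1 CPM in 3 libraries was 1 of them. Replicates are separate mice. Scripts were tested on simulated data. Depth was at least 29964576 counts per library. Positions and exon lengths came from GENCODE M21 (GRCm38), and promoters from RefSeq (9 of 10 members matched by symbol). Correlations used log2 CPM with 2 added.

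All 10 members are named, with partners, downstream and S phase genes that were called or bear on them. Of the downstream list, 1 gene is not reported here and was left out of its counts. Members and lists were chosen with earlier results of these data known. Replicate numbers are mouse numbers and are not shared between groups.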

Additional observations from a re-analysis of the deposited data

Results flagged for a closer look

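In preleukaemic TgSpi1FA+/+ mouse preleukemic_138 of model 1, Fanci was at 29.0 CPM and Fancb at 20.6 CPM, each far below the other 3 mice of that group (47.8 to 49.2 CPM for Fanci and up to 29.3 CPM for Fancb) by Dixon's test, which singles out about 1 group in 20 by chance. Here it singled out 2 of 20 groups. Of the other 3 mice, preleukemic_445 and preleukemic_479 were near alike over all genes. The second table did not repeat the low Fanci value, with 37.4 CPM in preleukemic_138 and 34.2 CPM in preleukemic_451. Fancb was again lowest in preleukemic_138 there, at 16.6 CPM, but close to the 18.3 CPM of preleukemic_451. Dixon's test was not run on those counts.

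The leukaemic change of Fancb differed between the models by -1.18 on the log2 scale (adjusted p = 0.0484, edgeR interaction), from a lower estimate in model 1 (-0.36) to a higher one in model 2 (0.81). Neither change was called on its own.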

How the results depend on the processing

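No member of model 2 was called under any alternative run. Of the single-gene values, 294 kept their sign and side of the threshold under alternatives that keep every mouse, 5 turned sign, 6 lost and 5 gained a call, and without 1 mouse the counts were 335, 38, 22 and 5. In the genotype comparison the count of members called was 1 (Fanca) with no filter or with DESeq2, and 0 to 1 without 1 mouse. From preleukaemic to leukaemic TgSpi1FA-/- cells it was 2 under each of the 6 alternatives that keep every mouse and 0 to 3 without 1 mouse (0 without preleukemic_224 or leukemic_28, 1 without preleukemic_40 or leukemic_39). Against TgSpi1FA+/+ cells it was 1 with no filter, with the compared groups only, with preleukemic_445 and preleukemic_479 summed and in the second table, and 1 to 3 without 1 mouse. For the interaction it was 0 with DESeq2 size factors or no filter, 2 with DESeq2 or the 1 CPM filter, and 0 to 1 without 1 mouse.

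Some signs turned. Fancf in the interaction became 0.038 with DESeq2 size factors and with DESeq2. In the second table Fancb became 0.074, Fancc -0.45 and Fancm -0.030. Without 1 mouse, the genotype estimates spanned -0.068 to 0.084 for Fancb, -0.23 to 0.30 for Fance and -0.059 to 0.16 for Fancf. Those for TgSpi1FA-/- progression spanned -0.47 to 0.48 for Fanca and -0.24 to 0.082 for Fancl, and against TgSpi1FA+/+ cells -0.033 to 0.28 for Fancc. In model 2 they spanned -0.16 to 0.037 for Fanca, -0.33 to 0.15 for Fancc, -0.39 to 0.011 for Fance, -0.48 to 0.17 for Fancf, -0.25 to 0.27 for Fancg and -0.48 to 0.20 for Fanci. In the interaction they spanned -0.42 to 0.52 for Fanca, -0.34 to 0.29 for Fancf and -0.14 to 0.18 for Fancm. The cause of these turns was not tested.

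Counts over all genes moved more. DESeq2 called 236, 3067, 2245, 471 and 2002 genes where edgeR called 1, 1782, 939, 0 and 673, over an unfiltered gene set whose median change in TgSpi1FA-/- progression was 0.15 (0.047 with its size factors alone). No filter gave 4 genes for the genotypes and 279 for the interaction. Summing preleukemic_445 and preleukemic_479 lowered the 939 to 122, the second table gave 267, and without 1 mouse the 1782 became 414 to 2319, the 939 became 53 to 1911 and the 673 became 1 to 1359. With the compared groups only, the 1782 became 1205 and the 939 became 635. No paired analysis was possible because the groups share no replicate numbers.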
